A study of Mus musculus with 6 samples.

Results

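In all, 10 genes of the integrated stress response were followed: the transcription factor genes Atf4, Atf5, Atf3, Ddit3 and Cebpb, and the target genes Trib3, Chac1, Sesn2, Nupr1 and Vldlr. They were taken by symbol from the authors' gene table, in which each of the 10 had 1 row among 36699. The cells were mouse A2Lox.cre embryonic stem (ES) cells, a line made for doxycycline-inducible transgenes, grown for 3 days as embryoid bodies, which are floating clusters of differentiating ES cells. One group of 3 libraries came from cells without doxycycline. The other 3 libraries came from cells given doxycycline for 24 hours from day 2, which switches on a transgene for Sp5, a zinc-finger transcription factor, with a Flag tag. All cells had been maintained on feeder fibroblasts that were removed before the embryoid bodies formed. Nothing in the labels says whether the libraries of a group were grown apart, and p-values may therefore measure technical spread only. Some library numbers in the titles recur in both groups and others do not, and nothing says whether equal numbers mark pairs. Both the drug and the transgene differ between the groups, and their effects cannot be told apart. The deposited value of a group is 1 FPKM figure (fragments scaled to transcript length and library size) for its 3 libraries together, so values per library and their SD cannot be given. No read counts are in the table, so the depth is unknown.

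The integrated stress response is the pathway by which cells slow protein synthesis and turn on rescue genes when they lack amino acids, carry misfolded proteins, or meet viral RNA or oxidative damage. Separate kinases sense these conditions and phosphorylate the translation factor eIF2 on its alpha subunit. General translation then falls, while a few mRNAs with upstream reading frames, among them Atf4, are translated more. ATF4 protein activates genes of amino acid supply, redox balance and, with CHOP (the product of Ddit3), cell death. The RNA levels reported here measure neither eIF2 phosphorylation nor the amount of ATF4 protein.

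In the authors' deposited table, 4 of the 10 genes rose with doxycycline, none fell and 6 were not called by Cuffdiff at q (Benjamini-Hochberg adjusted p) under 0.05. The 4 were Sesn2, Nupr1, Vldlr and Chac1, all from the target genes named above. None of the 5 transcription factor genes was called. That division is not strict, since Atf3, Ddit3 and Atf5 are themselves targets of the response. Errors were also wide for Ddit3, Atf5 and Cebpb. Among all 18537 tested rows the same rule called 23.2%, with 10.5% higher and 12.7% lower with doxycycline. Among the 12326 tested rows with 1 FPKM or more in the higher group it called 28.3%, with 11.5% higher. With a minimum fold of 1.5, 1 of the 10 genes (Vldlr) passed as higher, against 6.03% of tested rows, and with a minimum of 2, none did, against 3.54%. With an unadjusted p under 0.05, 4 of the 10 genes were higher and 1 (Atf4) was lower. The share of all tested rows at that threshold was not computed. Counts at an unadjusted p, here and below, therefore cannot be set against it. The median difference over the 10 genes, on the log2(FPKM + 1) scale, was 0.07, against -0.02 over all tested rows and -0.04 over tested rows with 1 FPKM or more in the higher group. All 10 genes were tested and all stood above 1 FPKM in both groups, the lowest value being 2.04 FPKM. In bulk RNA, a change in the share of cells that express a gene cannot be told apart from a change in RNA per cell.

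**Figure D1:**
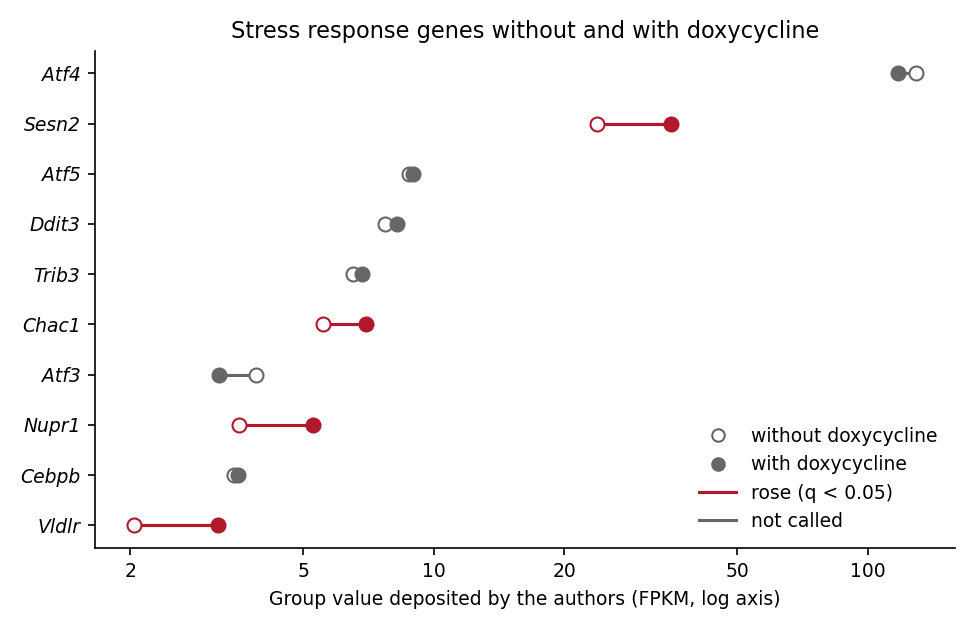
Group values of the 10 genes (x axis, FPKM on a log scale) without doxycycline (open circles) and with it (filled circles), 1 value per group of 3 libraries and no error of its own. Red marks genes with q under 0.05; Sesn2 moved from 23.7 to 35.3 FPKM, and Atf4 stood above 110 FPKM in both groups.

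The 4 genes that rose were compared with the others by the DNA before their start sites. RefSeq promoter windows (GRCm38.p6, 250 bases before a start site and 50 from it on) were matched by symbol for 10 of 10 genes, giving 12 windows because Atf5 and Vldlr each had 2 start sites. The windows were searched on both strands for TGATGNAA, the core of the C/EBP-ATF response element through which ATF4 acts with a C/EBP partner, and for GGGCGG, the GC box bound by Sp factors. A match to one motif cannot share a base with a match to the other. TGATGNAA was present for 5 of the 10 genes, against 4.51% of all 27025 genes with a window (3.97% of 32851 windows). The 10 genes were chosen as regulators and targets of the response, and this is the textbook element of ATF4 targets. A share above that of all genes could therefore follow from the choice of genes and is no result of these data. The 5 matches are shown with the bases around them because they set out which genes carry the element, each as 30 bases, 5′ to 3′ on the strand of the gene, with the match in capitals. All 5 read as the reverse complement of the searched letters.
Chac1: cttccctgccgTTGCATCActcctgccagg
Nupr1: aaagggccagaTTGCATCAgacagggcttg
Vldlr: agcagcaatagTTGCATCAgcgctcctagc
Atf3: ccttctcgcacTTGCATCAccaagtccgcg
Trib3: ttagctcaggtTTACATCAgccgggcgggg

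In Chac1 the match began 193 bases before the start site (chr2:119351038-119351067, plus strand), in Nupr1 110 bases before it (chr7:126625562-126625591, minus strand) and in Atf3 also 110 bases before it (chr1:191183425-191183454, minus strand). The Vldlr match lay 200 bases before the second of its start sites (chr19:27216809-27216838, plus strand). That of Trib3 began at base 15 counted from its RefSeq start site (chr2:152344028-152344057, minus strand), which had no match among GENCODE transcripts of the gene. The stretches of Chac1 and Atf3 lay outside every exon of the GENCODE vM21 annotation, and those of Nupr1, Vldlr and Trib3 lay within an annotated exon of the gene itself. In 4 of the 5 matches the letters were the same, and Trib3 differed from them at the free position only. Of the 4 genes that rose, 3 held the element (Chac1, Nupr1 and Vldlr), and Sesn2 did not in this window. Atf3 and Trib3 held it and were not called. No match was found in the windows of Atf4, Atf5, Ddit3 and Cebpb. A GC box was present for 8 of the 10 genes, all but Atf4 and Ddit3, and for 4 of the 4 that rose, against 38.2% of all genes with a window. Atf3, Atf5, Trib3 and Cebpb held a GC box too and were not called. The share over all genes was taken without regard to expression or GC content. No share was computed for windows of similar GC content, so the difference cannot be read as a trait of these genes.

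**Figure D2:**
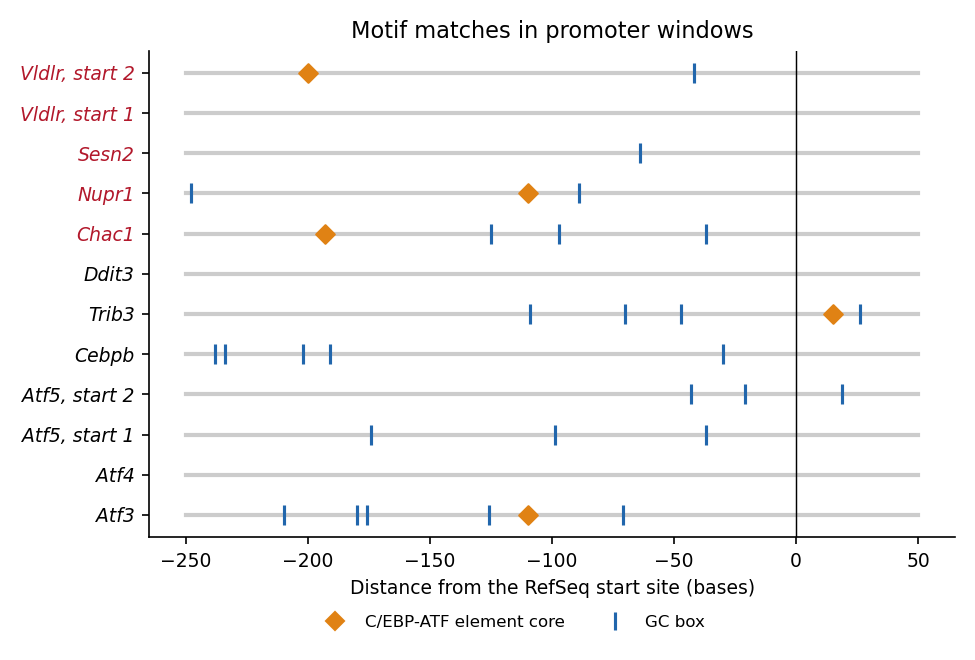
Matches to the C/EBP-ATF element core (diamonds) and the GC box (bars) in the 12 promoter windows, by distance of the first matched base from the RefSeq start site in bases (x axis); genes in red rose. Element matches are seen in Chac1, Nupr1, 1 of the 2 Vldlr windows, Atf3 and Trib3, and GC boxes in 8 genes.

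Upstream stretches are given for 3 genes that differ in call and in motif content: Chac1 (rose, with the element), Sesn2 (rose, without it) and Atf3 (not called, with it). Each runs from 250 bases before the RefSeq start site to the last base before the first GENCODE exon, 5′ to 3′ on the strand of the gene, with element matches and GC boxes (GGGCGG or its reverse complement) in capitals. They lie at chr2:119350992-119351228 (plus strand), chr4:132510502-132510706 (minus strand) and chr1:191183341-191183583 (minus strand) of GRCm38.p6.
Chac1: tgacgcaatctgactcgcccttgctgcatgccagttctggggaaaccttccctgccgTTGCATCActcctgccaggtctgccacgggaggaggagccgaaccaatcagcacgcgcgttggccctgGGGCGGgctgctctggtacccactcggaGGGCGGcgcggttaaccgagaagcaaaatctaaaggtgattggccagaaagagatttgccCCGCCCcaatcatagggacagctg
Sesn2: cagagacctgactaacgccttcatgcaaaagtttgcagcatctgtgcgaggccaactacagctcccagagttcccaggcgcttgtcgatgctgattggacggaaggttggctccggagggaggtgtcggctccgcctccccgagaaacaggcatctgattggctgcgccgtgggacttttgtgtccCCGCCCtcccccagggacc
Atf3: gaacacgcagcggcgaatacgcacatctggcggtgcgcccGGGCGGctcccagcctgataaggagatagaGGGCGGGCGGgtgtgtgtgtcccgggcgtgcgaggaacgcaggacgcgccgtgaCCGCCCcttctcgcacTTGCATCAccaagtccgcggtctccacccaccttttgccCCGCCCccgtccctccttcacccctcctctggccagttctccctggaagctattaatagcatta

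Chac1 thus showed 1 element and 3 GC boxes, Sesn2 1 GC box, and Atf3 1 element and 5 GC boxes, 2 of which overlap. A match of letters does not show that a factor binds there, and binding was not measured in these data.

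Sesn2 encodes a sestrin, a leucine sensor that holds back mTORC1, the kinase complex that promotes growth. Cells without doxycycline had 23.7 FPKM and cells given it 35.3 FPKM, so Sesn2 rose 1.49-fold (0.57 on the log2 scale). Its q in the authors' deposited table is listed as 0. The standard error of each fold change was recovered from the authors' test by dividing the log2 fold change by the deposited test statistic, which assumes that the statistic is that ratio. For Sesn2 it was 0.06 on the log2 scale, giving a 95% interval of 1.36 to 1.62-fold. Its level rose from above 81.5% of tested rows to above 87.0% of them. Among the 1948 genes that rose and had a fold, 58.2% rose by more. The row covers chromosome 4, 132047947 to 132066416 of mm9, a span shared with Gm12981, which had 0.163 and 0.196 FPKM.

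Nupr1 encodes a small chromatin-associated protein that is induced by many stresses. Its value was 3.56 FPKM without doxycycline and 5.27 FPKM with it, a 1.48-fold rise (q = 0.00383 in the authors' deposited table; chromosome 7, 133766763 to 133770524). The 95% interval of that fold, 1.18 to 1.86, was wider than that of Sesn2, whose fold was nearly equal in size. Vldlr, which encodes a receptor for lipoproteins and for reelin, had the largest fold of the 10 and the lowest level. It went from 2.04 to 3.18 FPKM (1.56-fold, interval 1.19 to 2.04, q = 0.00723; chromosome 19, 27290974 to 27328721). Chac1, whose enzyme breaks down glutathione, went from 5.56 to 6.99 FPKM. This was the smallest of the 4 rises, 1.26-fold with an interval of 1.09 to 1.45 (q = 0.00828; chromosome 2, 119176965 to 119180117). The intervals of all 4 overlapped, and differences between their folds were not tested.

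Trib3, a pseudokinase gene whose product restrains ATF4 and CHOP as feedback, was the only gene not called among the target genes named at the start. It had 6.52 FPKM without doxycycline and 6.84 FPKM with it (1.05-fold, q = 0.828 in the authors' deposited table; chromosome 2, 152163158 to 152169768). Its interval of 0.883 to 1.24-fold ended below the folds of all 4 targets that rose, though it overlapped the intervals of Chac1, Nupr1 and Vldlr. At its error, the smallest rise that the test could have called was 1.25-fold.

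**Figure D3:**
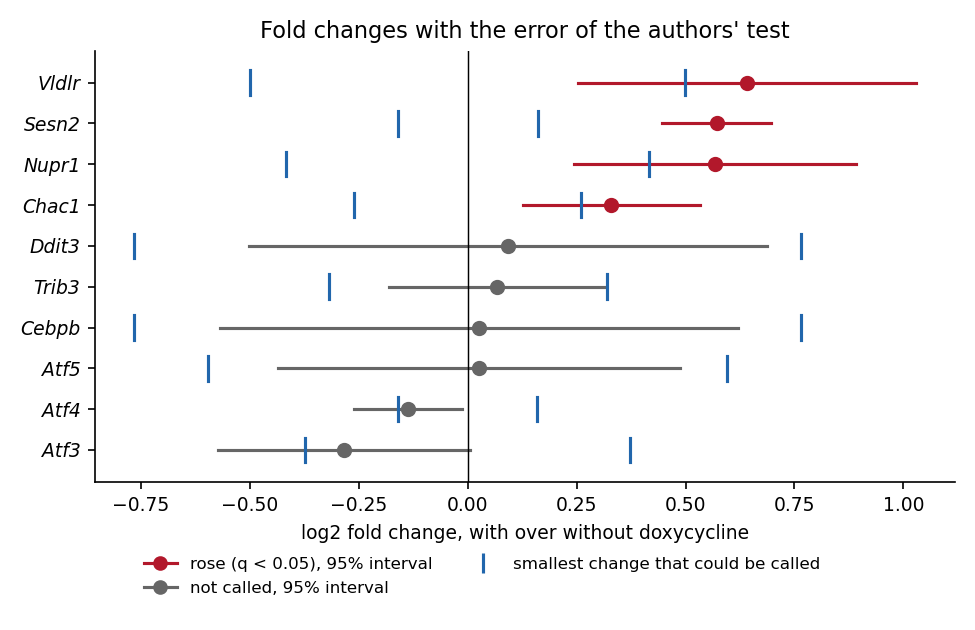
Log2 fold change of the 10 genes, with over without doxycycline (x axis), with the 95% interval from the error of the authors' test; red genes rose and grey genes were not called. Blue ticks mark the smallest change in either direction that the test could call at that error, which ranged from 1.12-fold (Atf4, Sesn2) to 1.70-fold (Ddit3, Cebpb).

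Atf4, the central transcription factor of the response, had by far the highest level of the 10 genes. Its value was 129 FPKM without doxycycline and 117 FPKM with it, above 96.2% and 96.1% of tested rows. The log2 fold change of -0.14 had a 95% interval of -0.26 to -0.01, but the adjusted value did not pass (p = 0.0299, q = 0.108 in the authors' deposited table; chromosome 15, 80085614 to 80087970). The error of Atf4, like that of Sesn2, was close to the smallest of any tested row, 0.0620 on the log2 scale. On the linear scale the interval ran from 0.834 to 0.991-fold, below the intervals of the 4 targets that rose. Atf3, a stress-induced factor that represses its targets as a homodimer, was also lower with doxycycline, at 3.90 and 3.21 FPKM. It was not called (log2 fold change -0.28, interval -0.57 to 0.01, q = 0.173; chromosome 1, 192994175 to 193007219).

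The other 3 factor genes had nearly equal values in both groups, with wide errors. Ddit3, which encodes the death-promoting factor CHOP, stood at 7.71 and 8.23 FPKM without and with doxycycline (q = 0.926 in the authors' deposited table). Atf5, a relative of Atf4 that is likewise controlled through upstream reading frames, stood at 8.79 and 8.94 FPKM (q = 0.983). Cebpb, a dimer partner of ATF4 and CHOP, stood at 3.48 and 3.54 FPKM (q = 0.987). The 95% intervals were 0.706 to 1.61-fold for Ddit3, 0.739 to 1.40-fold for Atf5 and 0.675 to 1.54-fold for Cebpb. Those of Ddit3 and Cebpb therefore included the folds of Sesn2 and Nupr1, and a change of that size was not detectable for either gene. At these errors the smallest callable folds were 1.70 for Ddit3, 1.51 for Atf5 and 1.70 for Cebpb.

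These 3 genes lay in loci that Cuffdiff treated together with other genes. Ddit3 shared chromosome 10, 126726752 to 126748842, with Mars (68.1 and 62.9 FPKM), a methionyl-tRNA synthetase gene, and with Gm4189. Atf5 shared chromosome 7, 52067627 to 52096179, with a row naming Il4i1 and Nup62 (104 and 99.1 FPKM). Cebpb shared chromosome 2, 167378814 to 167515918, with 6 rows, among them one naming Gm20431, Tmem189 and Ube2v1, which fell from 79.9 to 67.9 FPKM (q = 0.0362). No strand-marking step is mentioned, so reads of overlapping neighbours may not be separable, and the coordinates are those of the whole locus. The error of Ddit3 was 2.86 times the median of tested rows within 1.3-fold of its level, that of Atf5 2.29 times and that of Cebpb 2.26 times. For the 6 genes alone at their locus this ratio ran from 0.887 (Atf4) to 1.33 (Vldlr), and for Sesn2, beside an almost silent neighbour, it was 0.763.

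**Figure D4:**
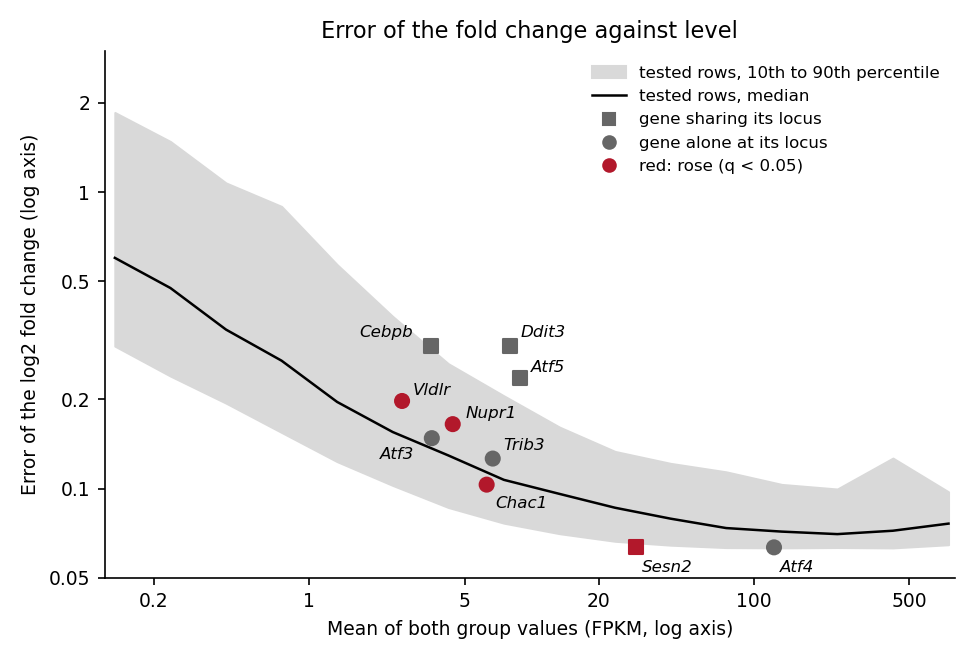
Standard error of the log2 fold change (y axis, log scale) against the mean of both group values (x axis, FPKM, log scale); the line and band are the median and the 10th to 90th percentile of tested rows. Ddit3, Atf5 and Cebpb (squares at the top) had errors of 0.24 to 0.30, while Sesn2 and Atf4 had 0.06; red genes rose.

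By level, the order without doxycycline was Atf4, Sesn2, Atf5, Ddit3, Trib3, Chac1, Atf3, Nupr1, Cebpb and Vldlr. With doxycycline, Chac1 stood above Trib3 (6.99 and 6.84 FPKM), and Nupr1 and Cebpb above Atf3 (5.27, 3.54 and 3.21 FPKM). Only Atf4 and Sesn2 stood clear of the rest, since the other 8 genes all lay between 2.04 and 8.94 FPKM. The group values have no error of their own, so neighbours among these 8 cannot be separated.

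Upstream of these genes, 15 tested genes encode eIF2 kinases or subunits of eIF2, eIF2B and the eIF2 phosphatase. None of the 15 rose by Cuffdiff, 2 fell and 13 were not called. At an unadjusted p under 0.05, 1 was higher and 3 were lower, with no share of all rows computed. Of 6 further genes in that list, regulators of the kinases and others, 1 rose, 1 fell and 4 were not called. Over the whole list 19.0% were called, against 23.2% of all tested rows and 28.3% of those with 1 FPKM or more in the higher group. None of the 4 kinase genes was called. Eif2ak3 (PERK, which senses misfolded protein in the endoplasmic reticulum) stood at 5.16 and 4.24 FPKM (q = 0.137), and Eif2ak4 (GCN2, which senses uncharged tRNA) at 6.30 and 7.30 FPKM (q = 0.135). Eif2ak1, the heme-regulated kinase, stood at 14.1 and 13.4 FPKM, and Eif2ak2 (PKR, the sensor of double-stranded RNA) at 3.10 and 2.66 FPKM. The constitutive eIF2 phosphatase subunit Ppp1r15b fell from 25.5 to 19.99 FPKM (1.28-fold lower, q = 9.09e-06), and the catalytic subunit Ppp1ca fell 1.196-fold. Ppp1r15a (GADD34), the stress-induced subunit and itself an ATF4 and CHOP target, was not called at 13.9 and 12.8 FPKM. Eif2a, an alternative initiation factor, fell 1.16-fold, and Oma1, a mitochondrial protease upstream of the response, rose 1.22-fold.

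Relatives of the 10 genes by family or shared ligand were mostly lower where called. The 9 tested relatives comprised 1 that rose, 5 that fell and 3 with no call (66.7% called, against 23.2% of all tested rows). Of the other sestrins, Sesn1 rose from 7.52 to 9.26 FPKM (1.23-fold, q = 0.00432) and Sesn3 was not called (8.61 and 8.98 FPKM). Beside Trib3, the pseudokinase gene Trib1 fell from 7.42 to 3.87 FPKM (1.92-fold lower, q listed as 0) and Trib2 fell 1.24-fold. Lrp8, the other reelin receptor gene, fell from 5.32 to 3.33 FPKM (1.60-fold lower, q = 6.27e-06) while Vldlr rose, and Dab1, the adaptor of both receptors, fell 1.35-fold. Of 23 tested bZIP factors, 2 rose, 4 fell and 17 were not called. Their share called, 26.1%, lay between that of all tested rows and that of rows with 1 FPKM or more in the higher group (28.3%). Cebpg, a C/EBP partner of ATF4, was not called at 8.04 and 7.82 FPKM. Those called at 1 FPKM or more were Batf3 (3.25-fold lower), Nfe2l2 (NRF2, the antioxidant factor, 1.36-fold lower), Cebpa (1.89-fold higher) and Tef (1.46-fold higher).

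Other textbook targets of ATF4 were called in both directions. Their shares are to be set against 23.2% of all tested rows and 28.3% of those with 1 FPKM or more in the higher group. For amino acid synthesis, 7 of 15 tested genes rose, 1 fell and 7 were not called (53.3% called). Asns, the asparagine synthetase gene, rose from 51.9 to 78.9 FPKM (1.52-fold, q = 1.15e-11), close in size to Sesn2, and Phgdh, of serine synthesis, rose 1.32-fold. Mthfd1l, of mitochondrial folate metabolism, fell 1.31-fold. For amino acid transport, 2 of 9 rose, 4 fell and 3 were not called (66.7% called). Slc7a3 fell from 145 to 62.3 FPKM (2.33-fold lower), Slc38a1 fell 1.91-fold and the cystine carrier gene Slc7a11 1.41-fold, and Slc1a5 rose 1.29-fold. None of 12 tested genes for tRNA synthetases and the tRNA exporter Xpot was called by Cuffdiff, and none had an unadjusted p under 0.05. In the list of remaining stress targets, 2 of 21 rose, 7 fell and 12 were not called (42.9% called). Gadd45b rose 1.59-fold, while the BH3-only death gene Pmaip1 fell 1.56-fold, Gadd45a 1.498-fold and the heme oxygenase gene Hmox1 1.42-fold.

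Genes of the ATF6 and XBP1 branch, which serves protein folding in the endoplasmic reticulum, were not called by Cuffdiff in any of 19 cases, and none had an unadjusted p under 0.05. Hspa5, the main chaperone of that compartment, stood at 248 and 243 FPKM and Xbp1 at 27.0 and 27.1 FPKM. Sesn2 is also known as a p53 target. Of the 12 tested genes in the p53 list, 3 rose, none fell and 9 were not called. The share called was 25%, against 23.2% of all tested rows and 28.3% of those with 1 FPKM or more in the higher group. At an unadjusted p under 0.05 by Cuffdiff, 4 were higher and none lower, with no share of all rows computed. These counts depend on how genes were sorted, since each gene stood in a single list. Of known p53 targets placed in other lists, Sesn1 rose, Pmaip1, Gadd45a and Tnfrsf10b fell, and Bbc3 was not called. Cdkn1a, the cell cycle inhibitor p21, rose from 16.1 to 40.8 FPKM (2.53-fold, q listed as 0), Phlda3 rose 1.22-fold and Plk2 1.15-fold.

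**Figure D5:**
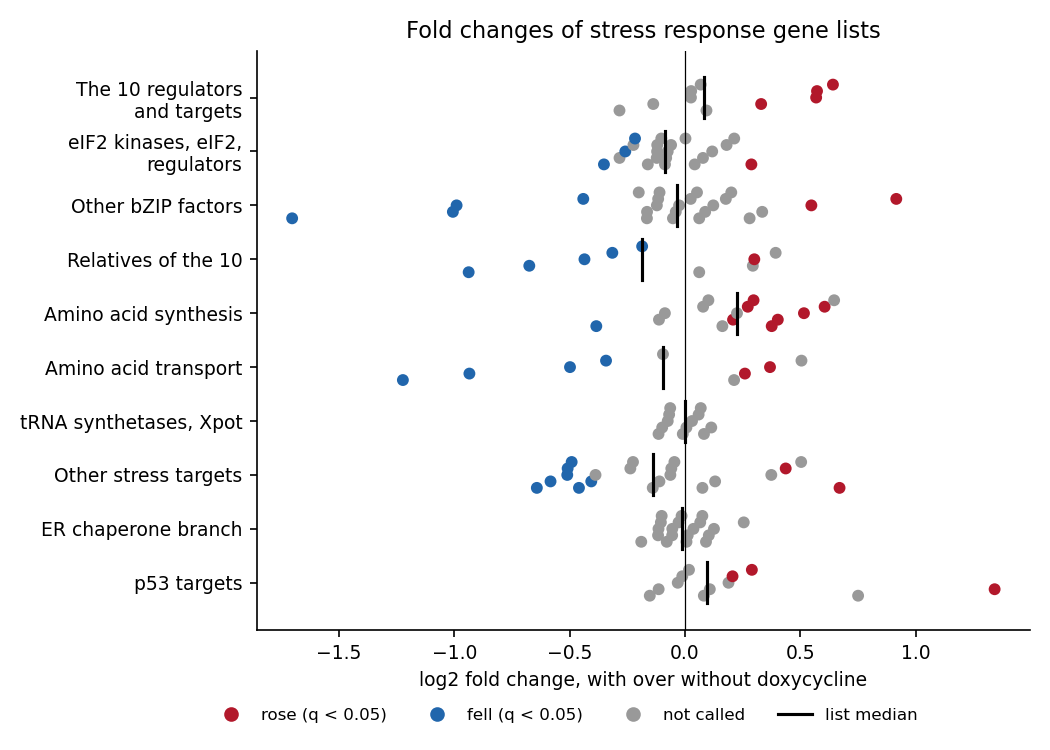
Log2 fold change, with over without doxycycline (x axis), of each tested gene in the 10 genes and in 9 further lists (rows); red rose, blue fell and grey was not called at q under 0.05, and black bars are medians of the log2 fold changes. The tRNA synthetase and endoplasmic reticulum lists hold no called gene, and the called genes of amino acid synthesis are mostly higher.

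Sp5 stood at 0.769 and 126 FPKM, the direction that the labels state. The pluripotency factor genes Pou5f1 (999 and 1058 FPKM) and Sox2 (60.8 and 60.6 FPKM) were abundant in both groups and not called. The other 6 of 8 pluripotency and epiblast markers changed, 2 upward and 4 downward (75% called). Among all tested rows 23.2% were called, and 28.3% of those with 1 FPKM or more in the higher group. Nanog went from 46.0 to 117 FPKM and Tdgf1 rose 1.46-fold, while Fgf5 went from 56.5 to 17.8 FPKM, Utf1 from 314 to 119 FPKM and Otx2 from 112 to 70.03 FPKM, and Dppa4 fell 1.23-fold. Markers of the cell state thus differed between the groups, and their part in the changes of the 10 genes was not tested. Of 10 tested fibroblast markers 1 rose and 5 fell (60% called). Lum and Fap stood under 0.07 FPKM and were not tested, and all 12 markers summed to 93.9 and 63.5 FPKM. Most of that difference lay in Tagln (56.9 and 36.5 FPKM) and Acta2 (18.9 and 9.92 FPKM), singled out after their values were seen, and the other 8 tested markers summed to 18.03 and 17.01 FPKM. Of these 8, 1 rose, 3 fell and 4 were not called, so their near-equal sums hide changes in both directions. Col1a1, a collagen gene, rose from 1.11 to 4.43 FPKM (3.99-fold higher). Thy1 fell from 9.34 to 6.42 FPKM, Dcn from 2.08 to 1.39 FPKM and Pdgfrb from 0.706 to 0.470 FPKM. Of 8 endoderm markers none rose and 4 fell (50% called), and their summed value went from 94.1 to 79.4 FPKM. At an unadjusted p under 0.05 by Cuffdiff, 5 were lower and none higher, with no share of all rows computed. Whether fibroblasts or endoderm had a part in the changes of the 10 genes was not tested.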

How the data were processed

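The data were 1 gene table in the layout of a Cuffdiff comparison of 2 groups of 3 libraries. The submitters' processing notes name mm9, Cuffdiff, Cufflinks 2.0.2, TopHat2 2.0.8, Picard and Bowtie. Annotation and library scaling: not given in the sources used here. FPKM values, p-values, q-values, test statistics (a score) and log2 fold changes are as the authors deposited them. A call is status OK with q under 0.05, which matched the authors' mark in all 36699 rows, and adjustment was over all 18537 tested rows.

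Fold changes are ratios of group FPKM without a pseudocount. Standard errors assume that the statistic is the log ratio over its error. Over 18284 tested rows (neither group at 0), the deposited p-values equalled two-sided normal p-values of the statistic to within 2.84e-06. The smallest callable fold uses the largest called p, 0.0116, at a gene's own error. Starts were read as 0-based and are printed from 1: spans then equalled GENCODE vM21 lengths for 10176 of 18344 genes, against 287 otherwise. Sequences are from RefSeq. The first bases of 11 of 12 windows were found in a GENCODE transcript of the gene, the exception being Trib3.

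The 10 genes and all lists were chosen with earlier results of these data known. Named were the 10, chosen kinases and relatives, up to 4 called genes of largest fold at 1 FPKM or more per list, and all called genes of lists with 5 or fewer. Of 186 listed genes, Nupr1l, Slc7a5, Map1lc3b and Tigar had no row under that symbol. Calculations used scipy 1.17.1, pandas 2.3.3, numpy 2.4.6 and Python 3.11.15. The calculations were tested on simulated data.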

Additional observations from a re-analysis of the deposited data

How the results depend on the processing

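The table gives 1 value per group, so no library could be left out, and no paired analysis was possible because no values per library were used. Of the 10 genes, the same count of 4 was called at q under 0.01, at q under 0.10 and with only rows at 1 FPKM or more. When rows sharing a locus were left out, which removes Sesn2, 3 of the 6 genes alone at their locus rose. The share of all rows called was not computed at these settings, so these counts cannot be set against it. By the main rule it was 23.2%, and 28.3% of rows at 1 FPKM or more. Among rows alone at their locus with a mean of 3 to 12 FPKM it was 34.5%. The rises are small: with a minimum of 1.5-fold 1 remained (Vldlr), against 6.03% of all tested rows, and at 2-fold 0 remained, against 3.54%. Centring on the median of rows at 1 FPKM in both groups (-0.04 on the log2 scale) or a pseudocount moved no fold change of the 10 genes by more than its error. On the log2 scale Atf4 went from -0.14 to -0.09 with centring, and Vldlr from 0.64 to 0.46 with a pseudocount of 1 FPKM. No intervals were computed after these shifts. Other lists also called fewer genes under stricter rules, and no share of all rows in either direction was computed for those rules. At q under 0.01 the kinase and eIF2 list had 2, the bZIP factors 3 and the p53 targets 1. At 1.5-fold the kinase and eIF2 list had 0, the relatives 2, amino acid synthesis 1, transport 2, other stress targets 2 and p53 targets 1. Leaving out rows sharing a locus removes genes from the lists. Among the genes left, the kinase and eIF2 list had 2 called and amino acid synthesis 5. With element matches counted only before the start site, 4 of the 10 genes kept one.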

Other observations

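Errors were wider for genes that share a locus across the table, not for Ddit3, Atf5 and Cebpb alone. Among tested rows with a mean of 3 to 12 FPKM, the median error of the log2 fold change was 0.14 in 1625 rows sharing a locus and 0.11 in 2409 rows alone at theirs, and the 90th percentiles were 0.36 and 0.17. In these rows 22.7% and 34.5% were called. At the locus of Cebpb, AL589870.2 went from 20.5 to 6.61 FPKM and was not called (q = 0.952 in the authors' deposited table); it was named after its values were seen.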
